A study of Rattus norvegicus with 6 samples.

Results

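The CCN family comprises secreted matricellular proteins, which sit in the extracellular matrix and alter how cells respond to it without building the matrix themselves. Its members here were Ccn1, Ccn2, Ccn3, Ccn4 and Ccn5, taken as the rows of the count table that carry these symbols. All 5 were present among 32883 named rows, each symbol on 1 row. Of these, 4 passed the filter on low counts that left 13766 genes for testing, and Ccn4 did not. Hearts came from wild-type male Sprague–Dawley rats, an outbred strain, that were 8 weeks old and weighed 250 to 300 g. The ISO group of 3 rats was injected subcutaneously with ISO at 1.5 mg/kg/day over 7 days, and the saline group of 3 rats was given saline in the same volume. ISO is taken here to mean isoproterenol, a beta-adrenergic agonist used to provoke hypertrophy and fibrosis of the myocardium. The labels name the tissue as heart without a region.

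CCN proteins share a modular build in which the cysteine-rich domains bind growth factors, integrins and heparan sulphate proteoglycans. Ccn2, formerly Ctgf, is a widely used transcriptional target of TGF-beta and of the YAP and TEAD factors and is produced by cardiac fibroblasts and myocytes. Ccn5, formerly Wisp2, lacks the carboxy-terminal module that the other members have, and in mouse hearts its forced expression has been reported to oppose hypertrophy and fibrosis. The pair was set side by side to ask how Ccn5 stood against Ccn2 in the same hearts.

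RefSeq promoter windows (build GRCr8) were matched for 2 of the 5 members, Ccn1 and Ccn2, whose reads kept nearly the same ratio in both groups as described later. Each window is the 250 bases before the gene start, printed 5′ to 3′ on the minus strand that carries the gene. Capitals mark GGAATG or its reverse complement CATTCC, the core bound by TEAD factors, searched on both strands. The Ccn2 window lies at chr1:22624615-22624864 and the Ccn1 window at chr2:237225690-237225939.
Ccn2: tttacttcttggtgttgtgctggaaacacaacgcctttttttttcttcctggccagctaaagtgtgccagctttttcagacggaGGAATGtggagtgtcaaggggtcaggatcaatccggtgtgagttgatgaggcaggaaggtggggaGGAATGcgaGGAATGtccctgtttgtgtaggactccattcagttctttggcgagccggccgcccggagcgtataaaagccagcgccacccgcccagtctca
Ccn1: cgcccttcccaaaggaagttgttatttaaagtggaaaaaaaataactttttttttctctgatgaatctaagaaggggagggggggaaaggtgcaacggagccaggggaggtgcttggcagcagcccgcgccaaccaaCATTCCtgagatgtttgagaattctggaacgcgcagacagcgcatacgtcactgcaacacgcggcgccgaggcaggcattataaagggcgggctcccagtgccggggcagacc
The Ccn2 window holds 3 matches, which begin 166, 101 and 92 bases before the gene start, and the Ccn1 window holds 1, which begins 113 bases before it. Of 33469 rat promoter windows of this length, 12.1% hold at least 1 match and 0.0807% hold at least 3. A match describes letters in a window and is no measurement of binding.

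The libraries held 14880391 to 17299589 counts. ISO replicate 3 lay farthest from saline on the first principal component of log2 CPM and ISO replicate 2 nearest, at 49.2 and 7.45 against −31.2 to −26.1 for saline. ISO replicate 1 carried RNA of atrial marker genes, whose summed level was 216 CPM there, 31.1 and 24.1 CPM in ISO replicates 2 and 3, and 23.7 to 25.9 CPM in saline. Most of the sum outside ISO replicate 1 was Nr2f2, at 26.9 and 21.9 CPM in ISO replicates 2 and 3 and 21.0 to 22.8 CPM in saline. At 26.6 CPM, Nr2f2 was not raised in ISO replicate 1. CPM are read counts scaled to a common library size after TMM scaling. Myocyte markers identified the tissue as heart, at 38505 to 54185 CPM summed over 9 genes in ISO and 61923 to 73241 CPM in saline.

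Among the tested members, 1 rose in ISO hearts, 0 fell and 3 were not called at an edgeR adjusted p under 0.05, and the counts were the same at an unadjusted p under 0.05 and by DESeq2. With voom no member was called. The member that rose was Ccn5, by 13.5-fold, whereas Ccn1, Ccn2 and Ccn3 had estimates of 1.34-fold, 1.38-fold and 1.33-fold with intervals that spanned no change. Over all tested genes, 1.47% were called higher in ISO and 1.5% lower. In either direction, 22.9% of tested genes had an edgeR p under 0.05 before adjustment, DESeq2 called 9.23% of the genes it gave an adjusted p, and voom called 2.39%. List counts by these 3 rules are read against those shares.

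**Figure D1:**
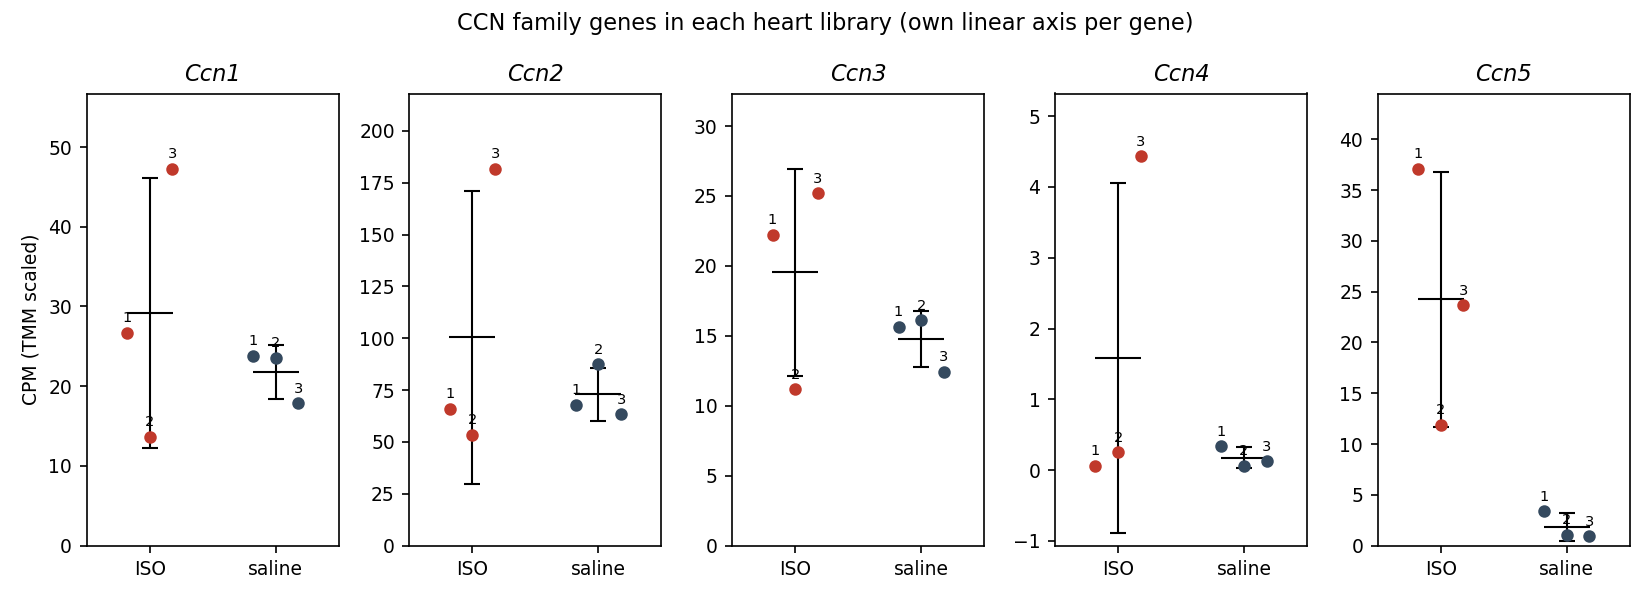
TMM-scaled CPM of each CCN gene (vertical axis, linear and separate for each gene, so levels cannot be compared between panels) in the ISO and saline libraries, numbered by replicate. Horizontal bars are group means and whiskers 1 SD over 3 libraries (below 0 for Ccn4 in ISO, where 1 library holds most reads). All ISO points lie above all saline points for Ccn5 alone, and ISO replicate 3 is the highest library for Ccn1, Ccn2, Ccn3 and Ccn4.

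Ccn5 (ENSRNOG00000010666) stood at 37.1, 11.9 and 23.7 CPM in ISO replicates 1 to 3, and at 3.41, 1.06 and 0.947 CPM in saline replicates 1 to 3. The lowest ISO library was thus 11.9 CPM and the highest saline library 3.41 CPM, so the groups did not overlap. Non-overlap in this direction occurred in 14.1% of tested genes. These levels rest on 592, 191 and 406 reads in ISO and on 50, 17 and 15 reads in saline. Between the nearest libraries, counting error alone gives 165 to 220 reads for ISO replicate 2 and 37.1 to 65.9 reads for saline replicate 1 (95% exact Poisson intervals). These intervals say nothing of the spread between rats, which the test below takes from the replicates.

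The group means of Ccn5 were 24.2 ± 12.6 CPM in ISO hearts and 1.81 ± 1.39 CPM in saline (SD, n = 3 each). Its log2 fold change was 3.76 (SE 0.57, 95% interval 2.46 to 5.05, edgeR adjusted p = 0.019). By size this change ranked 14 among 13766 genes, while by p-value it ranked 98. Both groups were variable in relative terms, with ISO replicate 1 highest in ISO and saline replicate 1 highest in saline. In bulk tissue, a change in the number of cells of a type and a change in RNA per cell cannot be told apart.

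The call for Ccn5 depended on which libraries were present, although its direction did not. It was kept without ISO replicate 2 (log2 fold change 4.08), ISO replicate 3 (3.78) or saline replicate 1 (4.58). It was lost without ISO replicate 1, at 3.30 (edgeR adjusted p = 0.0617), without saline replicate 2, at 3.48 (0.0814), and without saline replicate 3, at 3.44 (0.0996). Genes called higher over the whole table numbered 9, 6 and 7 in those 3 fits, and 14 without saline replicate 1, where Ccn5 kept its call.

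Ccn2 (ENSRNOG00000015036), the member most often used as a fibrosis marker, stood at 66.0, 53.6 and 182 CPM in ISO replicates 1 to 3, and at 68.0, 87.5 and 63.4 CPM in saline replicates 1 to 3. ISO replicate 3 was more than any saline library, but ISO replicate 2 was below all of them and ISO replicate 1 lay within their range. Group means were 100.4 ± 70.6 CPM in ISO hearts and 73.0 ± 12.8 CPM in saline (SD, n = 3 each). The log2 fold change was 0.46 (SE 0.41, 95% interval −0.49 to 1.41, edgeR adjusted p = 0.55). Without ISO replicate 3 the estimate turned to −0.28 (SE 0.17, edgeR adjusted p = 0.39), so the sign of the Ccn2 change rested on that library.

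Ccn1 (ENSRNOG00000014350), formerly Cyr61, is an immediate early gene product that supports angiogenesis and restrains fibroblasts by promoting their senescence in mice. It stood at 26.7, 13.7 and 47.3 CPM in ISO replicates 1 to 3, and at 23.8, 23.6 and 17.9 CPM in saline replicates 1 to 3. As with Ccn2, ISO replicate 3 was highest and ISO replicate 2 lowest of all 6 libraries. The log2 fold change was 0.43 (SE 0.38, 95% interval −0.44 to 1.29, edgeR adjusted p = 0.545), and it became −0.10 without ISO replicate 3.

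Ccn3 (ENSRNOG00000008697), formerly Nov, is known in mouse kidney as a counterpart that limits Ccn2 and matrix deposition. It stood at 22.2, 11.2 and 25.2 CPM in ISO replicates 1 to 3, and at 15.7, 16.1 and 12.4 CPM in saline replicates 1 to 3. Here ISO replicates 1 and 3 were above every saline library and ISO replicate 2 was below every one. The log2 fold change was 0.41 (SE 0.28, 95% interval −0.24 to 1.05, edgeR adjusted p = 0.424). Leaving out ISO replicate 2 raised it to 0.68 (SE 0.16, edgeR adjusted p = 0.0547), still not called.

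Ccn4 (ENSRNOG00000007078), formerly Wisp1, is induced by WNT1 and stimulates proliferation of rat cardiac fibroblasts in culture. It had 1, 4 and 76 reads in ISO replicates 1 to 3, and 5, 1 and 2 reads in saline replicates 1 to 3. The 76 reads of ISO replicate 3 (95% exact Poisson interval 59.9 to 95.1) were the only count above 5, and the groups overlapped. In CPM this was 4.43 in ISO replicate 3, against a counting floor of 3 reads that lay between 0.175 and 0.204 CPM. With no filter on low counts the log2 fold change was 3.13 (SE 1.25, edgeR adjusted p = 0.217). Ccn6, the remaining family gene and not among the 5 members, had 5 reads over all 6 libraries.

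**Figure D2:**
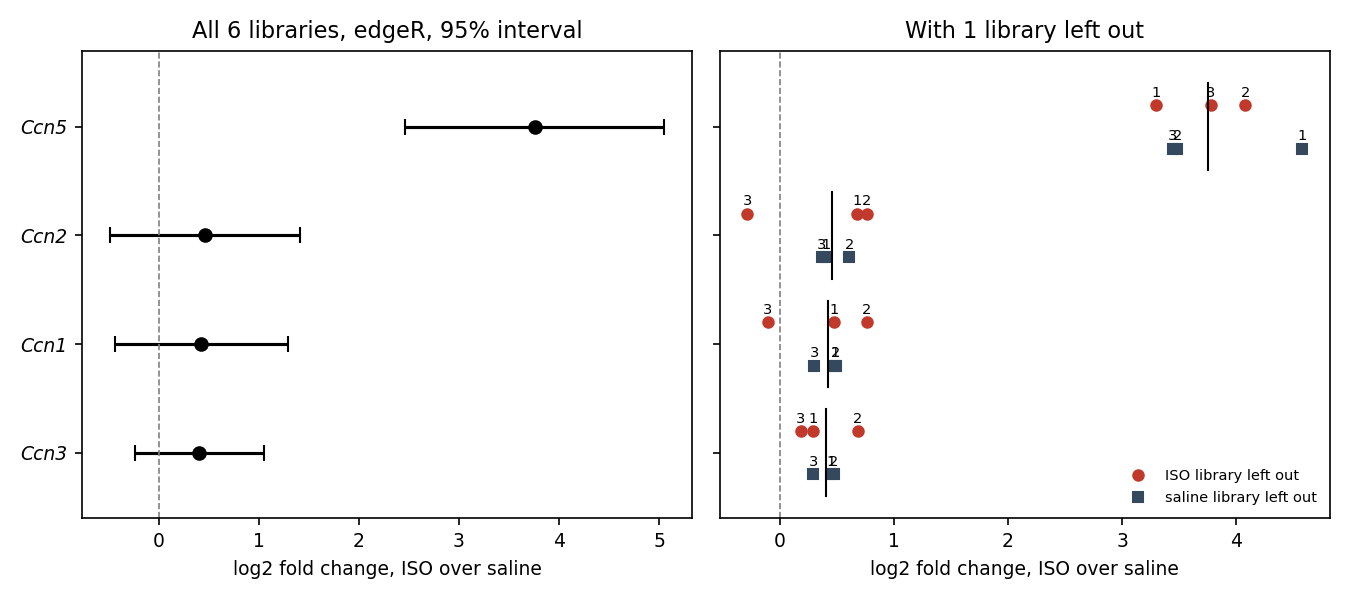
Log2 fold change of ISO over saline (horizontal axis) for the 4 tested CCN genes, with 95% intervals from edgeR on all 6 libraries at left and, at right, the value after leaving out each library in turn. Numbers give the replicate left out, circles an ISO library and squares a saline library, and vertical bars the value from all libraries. Ccn5 stays between 3.30 and 4.58, whereas Ccn2 and Ccn1 cross zero without ISO replicate 3.

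A ratio of reads within a library does not depend on how the library is scaled, and it gives the contrast of Ccn5 with Ccn2 directly. For each 100 Ccn2 reads there were 56.2, 22.2 and 13.0 Ccn5 reads in ISO replicates 1 to 3, and 5.01, 1.22 and 1.49 in saline replicates 1 to 3. The groups did not overlap on this ratio. Its log2 value rose by 3.48 in ISO, an 11.2-fold shift, with means of −1.97 ± 1.06 in ISO and −5.45 ± 1.04 in saline (SD, n = 3 each, 2 reads added to each count). The two-sided exact permutation test gave p = 0.1, the smallest value that 3 against 3 allows, and 0.15 after Benjamini-Hochberg adjustment over the 9 ratios computed. Leaving out a library moved the shift between 2.91 and 4.07, with the same sign in all 6 cases. The pair was named with earlier results of these data known.

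Ccn1 and Ccn3 did not separate from Ccn2 in this way. Ccn1 had 40.4, 25.5 and 26.0 reads for each 100 of Ccn2 in ISO, and 35.0, 26.9 and 28.2 in saline, a log2 shift of 0.00 (exact permutation p = 1, n = 3 each). Ccn3 had 33.7, 20.8 and 13.9 in ISO and 23.0, 18.4 and 19.6 in saline, a shift of 0.07 (exact permutation p = 0.8, n = 3 each). Against Ccn3, Ccn5 shifted by 3.41, and against Ccn1 by 3.48, with no overlap between groups in either case (exact permutation p = 0.1 each, n = 3 each). Each p of 0.1 became 0.15 after adjustment over the 9 ratios. The values of 1 and 0.8 do not show that Ccn1, Ccn2 and Ccn3 responded alike.

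**Figure D3:**
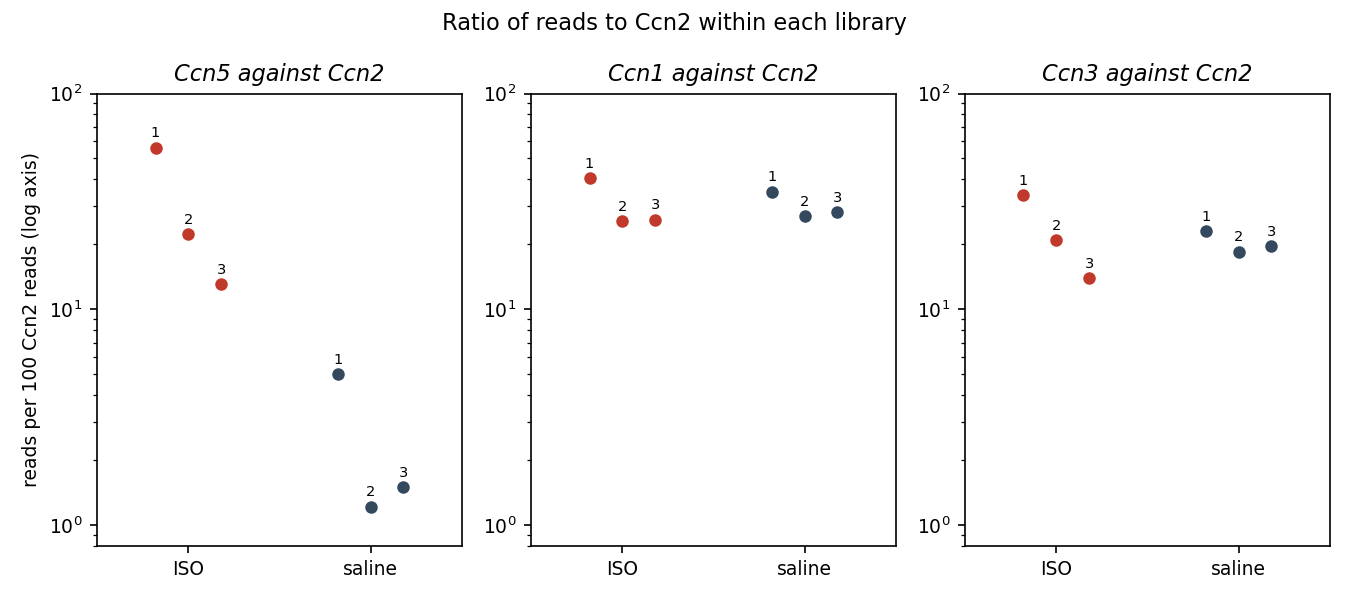
Reads of Ccn5, Ccn1 and Ccn3 for each 100 reads of Ccn2 within each library (vertical axis, log scale), for ISO and saline libraries numbered by replicate. The Ccn5 ratio is 13.0 to 56.2 in ISO and 1.22 to 5.01 in saline, while the ratios of Ccn1 and Ccn3 overlap between groups.

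Across the 6 libraries, log2 CPM of Ccn1 and Ccn2 had a Pearson r of 0.91, Ccn1 and Ccn3 one of 0.94, and Ccn2 and Ccn3 one of 0.75. Ccn5 had an r of 0.40 with Ccn1, 0.25 with Ccn2 and 0.58 with Ccn3. With Ccn4, which rests on 1 library, r was 0.70 for Ccn1, 0.83 for Ccn2, 0.51 for Ccn3 and 0.42 for Ccn5. These coefficients describe 6 points that fall into 2 groups, and ISO replicate 3 was the highest library for Ccn1, Ccn2 and Ccn3 alike. Genes with the pattern most like each member were taken as the highest Pearson r among 11891 candidates over the 6 libraries. For Ccn2 they were Rassf2 (0.995), Tgfbr1 (0.990) and Foxn2 (0.988), of which Tgfbr1 encodes the type I TGF-beta receptor. Tgfbr1 stood at 24.8, 21.9 and 53.8 CPM in ISO replicates 1 to 3 and at 24.9, 27.8 and 22.8 CPM in saline, so it too exceeded all saline libraries in ISO replicate 3 alone.

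For Ccn5 similar patterns were those of C8g (r = 0.996), a complement component, and Epn3 (0.993), an epsin. Epn3 gave 1.67 on the log2 scale and C8g 0.86, and neither was called (edgeR adjusted p = 0.053 and 0.117). For Ccn1 they were Tmem97, Arf4 and Zfp354c, and for Ccn3 Kif18b, Gen1 and Zbp1, with r from 0.989 to 0.994.

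Fibroblasts are a main source of matricellular proteins in the heart. Summed over 10 fibroblast markers the level was 11539, 10382 and 20417 CPM in ISO replicates 1 to 3 and 5370 to 5965 CPM in saline. Of these 10, Scara5, Dpt and Col3a1 (the last named after its values were seen) rose and 7 were not called, with a list median of 0.85 against 0.02 over all tested genes. All 10 had an unadjusted p under 0.05, DESeq2 called 8 and voom 3. The edgeR count was 0 without ISO replicate 1 or any one saline library, 7 without ISO replicate 2 and 4 without ISO replicate 3, while the median stayed between 0.72 and 0.89. Scara5, a scavenger receptor of resting fibroblasts, stood at 64.5 ± 1.19 CPM in ISO hearts and 36.4 ± 1.00 CPM in saline (SD, n = 3 each).

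Ccn5 and Ccn2 were also set against these markers within each library. For each 100 reads of Pdgfra, a receptor of resident fibroblasts, there were 20.0, 7.17 and 13.0 Ccn5 reads in ISO and 2.96, 0.710 and 0.921 in saline, a log2 shift of 3.18. Relative to the summed fibroblast markers the shift was 2.47 (exact permutation p = 0.1 for both ratios, n = 3 each). For Ccn2 against the summed markers the shift was −1.01, with no overlap between groups (exact permutation p = 0.1, n = 3 each). That sum is weighted to abundant genes such as Col3a1, itself called higher. Col3a1 stood at 4473, 3892 and 8160 CPM in ISO replicates 1 to 3 and 1229 to 1707 CPM in saline. Shifts against the sum, for Ccn5 as for Ccn2, are therefore no measure of RNA per fibroblast. Against Pdgfra alone the Ccn2 shift was −0.30, with 35.6, 32.2 and 100.03 reads in ISO and 58.4 to 61.7 in saline (exact permutation p = 0.5, n = 3 each).

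Of 9 activated fibroblast markers, Postn, Itgbl1 and Cthrc1 (the last named after its values were seen) rose and 0 fell, with a median of 1.10. DESeq2 called 4 and voom 2, and the edgeR count was 0 without ISO replicate 1 or any one saline library and 4 without ISO replicate 2 or 3. Their summed level was 618, 515 and 2969 CPM in ISO replicates 1 to 3, and 190 to 239 CPM in saline. ISO replicate 3 led here as it did for Ccn1, Ccn2, Ccn3 and Ccn4, whereas Ccn5 was higher in ISO replicate 1 than in ISO replicate 3. Over all tested genes ISO replicate 3 was the highest of the 6 libraries in 24.2% and ISO replicate 1 in 13.1%.

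Chondrocyte and valve markers, a list of 7 genes, had a summed level of 41.7, 12.7 and 17.2 CPM in ISO replicates 1 to 3 and 22.1, 10.0 and 6.06 CPM in saline replicates 1 to 3. This sum ranked the libraries as Ccn5 did within ISO and within saline, but its single genes did not all do so. Among the tested markers, Hapln1 and Comp had the Ccn5 order in both groups, whereas Sox9 and Chad differed from it within ISO. Comp and Chad were named after their values were seen. Comp had 55, 12 and 20 reads in ISO replicates 1 to 3 and 54, 4 and 2 reads in saline replicates 1 to 3. Hapln1, a link protein of cartilage and valve matrix, carried most of the ISO replicate 1 sum, at 25.7, 4.43 and 10.9 CPM in ISO hearts and 4.70, 2.19 and 1.58 CPM in saline. Sox9, a chondrocyte transcription factor named after its values were seen, stood at 9.02, 5.99 and 4.08 CPM in ISO hearts and 8.38, 6.69 and 3.60 CPM in saline, an order within ISO that differs from that of Ccn5. Between groups the sum overlapped, with saline replicate 1 above ISO replicates 2 and 3, while Ccn5 did not overlap. None of the 4 tested markers was called by edgeR, DESeq2 or voom, with 1 at an unadjusted edgeR p under 0.05. Their median of 0.22 was −0.40 without ISO replicate 1, −0.19 without saline replicate 3 and 1.81 without saline replicate 1, and edgeR called 1 of them higher without ISO replicate 2. Acan, Col2a1 and Col9a1, also named after their values were seen, had no reads in at least 1 library. The part of these markers in the Ccn5 values was not tested, nor was that of the atrial RNA in ISO replicate 1, without which the Ccn5 change was 3.30.

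**Figure D4:**
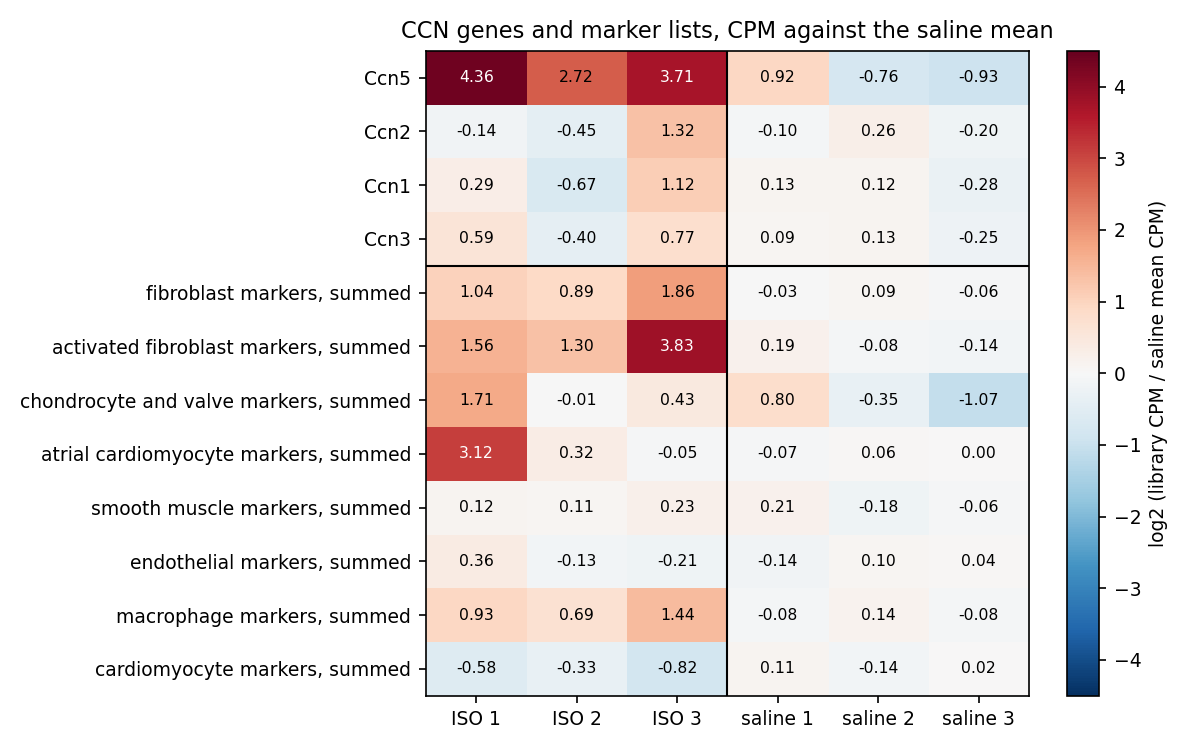
Log2 of each library's CPM over the saline mean (colour and printed value) for the tested CCN genes (upper 4 rows) and for summed marker lists (lower rows), with ISO libraries left of saline libraries. Ccn5 is raised in all ISO libraries, Ccn2 and Ccn1 chiefly in ISO replicate 3, and the atrial list in ISO replicate 1.

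Further cell types were read from their own marker lists. Among 9 macrophage markers 4 were higher and 0 lower (median 0.99), among them the complement genes C1qa at 1.15 and C1qc at 0.91. DESeq2 called 8 of them and voom 3, and the edgeR count ran from 0 without any one saline library to 7 without ISO replicate 2. Myocyte markers had 1 of 9 lower, the cardiac actin gene Actc1 at −1.18, and none higher (median −0.46). DESeq2 called 4 lower and voom 1, and the edgeR count was 0 without ISO replicate 1 or any one saline library and 2 without ISO replicate 2. No member was called among 6 smooth muscle (median 0.46), 6 pericyte (0.04), 6 endothelial (−0.07), 7 mesothelial and epicardial (−0.07), 5 Schwann and nerve (0.31) or 3 tested atrial markers (3.59). At an unadjusted edgeR p under 0.05 these 6 lists had 3, 1, 1, 0, 1 and 2 members, DESeq2 called 0, 1, 1, 0, 1 and 0, and voom none. EdgeR called 1 endothelial marker lower without ISO replicate 2. The medians of the pericyte, endothelial and mesothelial lists changed sign when single libraries were left out, and the atrial median was 0.16 without ISO replicate 1. Set against saline, the atrial median was 4.98 for ISO replicate 1, 0.31 for ISO replicate 2 and 0.01 for ISO replicate 3. The most abundant genes of the smooth muscle, pericyte, endothelial, mesothelial and atrial lists were, in that order, Smtn, Abcc9, Vwf, Wt1 and Nr2f2. They gave −0.06, 0.00, 0.46, −0.35 and 0.21, none of them called. Smtn and Nr2f2 lay below their list medians of 0.46 and 3.59. Vwf stood at 709 CPM in ISO replicate 1, but at 219 and 236 CPM in ISO replicates 2 and 3, below the 244 to 343 CPM of saline.

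Regulators known to act on Ccn1 and Ccn2 were examined next. TGF-beta ligands, receptors, SMADs and targets had 3 of 18 members higher and none lower, with a median of 0.18 (6 called by DESeq2, 3 by voom). The edgeR count was 0 without ISO replicate 1 or any one saline library, 4 without ISO replicate 2 and 2 without ISO replicate 3. The ligand gene Tgfb3 stood at 129, 78.1 and 132 CPM in ISO hearts and 50.2, 55.6 and 43.2 CPM in saline, which gave 1.19 on the log2 scale (SE 0.21, edgeR adjusted p = 0.0281). The latent TGF-beta binding protein genes Ltbp2 and Ltbp3 changed by 3.08 (SE 0.60) and 0.91 (SE 0.16). Tgfb3 thus did not overlap between groups, whereas Ccn2, a TGF-beta target, did.

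Hippo effectors and SRF cofactors had 1 of 13 members lower and none higher (median 0.09, and −0.03 without saline replicate 2). The lower gene was Srf, the serum response factor that drives Ccn1 and many muscle genes, at 71.7, 84.6 and 64.8 CPM in ISO hearts and 145, 116 and 125 CPM in saline hearts. Its change was −0.81 (SE 0.14, edgeR adjusted p = 0.026). In this list DESeq2 called 2 lower and voom 1 lower, with 1 higher and 2 lower at an unadjusted edgeR p under 0.05. EdgeR called none of them without ISO replicate 1 or any one saline library, and 2 lower without ISO replicate 2. YAP and TEAD targets other than CCN genes had 1 of 19 called higher by edgeR and none lower, with a median of 0.00. The higher one was Ccdc80, a secreted matrix protein. It stood at 909, 615 and 968 CPM in ISO hearts and 303, 373 and 233 CPM in saline hearts, which gave 1.45 (SE 0.23, edgeR adjusted p = 0.0204). Among these targets DESeq2 called 2 higher and voom 1 higher, with 3 higher and 2 lower at an unadjusted edgeR p under 0.05. Without ISO replicate 1 or any one saline library edgeR called none of them, and without ISO replicate 2 it called 2 higher.

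Immediate early genes, the class to which Ccn1 belongs, had none of 16 called by edgeR and a median of 0.38. At an unadjusted edgeR p under 0.05 there were 4, all higher, while DESeq2 called 1 higher and voom 0. EdgeR called 1 of them higher without ISO replicate 2. Jun and Dusp1, the 2 most abundant of the list, gave 0.30 and 0.47. Beta-catenin targets, examined because WNT1 induces Ccn4, had none of 9 called by edgeR, DESeq2 or voom and a median of 0.27 (1 at an unadjusted edgeR p under 0.05), which was 0.00 without ISO replicate 1. Apcdd1, a WNT antagonist, stood at 22.1, 8.54 and 9.04 CPM in ISO hearts and 7.63, 5.88 and 6.88 CPM in saline, which did not pass the test (0.96, edgeR adjusted p = 0.171), and Dkk3 gave −0.02. Hypertrophic peptide agonists and receptors had 1 of 7 called higher by edgeR, the angiotensin converting enzyme gene Ace, and none lower (median 0.23, and −0.06 without ISO replicate 1). DESeq2 called 1 higher and 1 lower and voom 1 higher, with 2 higher and 1 lower at an unadjusted edgeR p under 0.05. EdgeR called none without ISO replicate 1 or any one saline library. Ace stood at 48.7, 41.0 and 29.8 CPM in ISO hearts and 21.4, 18.1 and 15.5 CPM in saline, which gave 1.12 (SE 0.20, edgeR adjusted p = 0.0305).

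Receptors that bind CCN proteins, chiefly integrins and LDL receptor-related proteins, had none of 12 members called by edgeR and a median of 0.14 (4 at an unadjusted p under 0.05, 2 called by DESeq2, 0 by voom). Itgb1, the common beta subunit, gave −0.03 (SE 0.15). Lrp1, an endocytic receptor for Ccn2, stood at 338, 366 and 375 CPM in ISO hearts and 252, 268 and 223 CPM in saline hearts, without overlap, yet just missed the threshold at 0.54 (SE 0.12, edgeR adjusted p = 0.0509).

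Of 15 tested members among other matricellular genes, 5 rose and 0 fell by edgeR, with a median of 1.14. DESeq2 called 6 and voom 4, and 11 had an unadjusted edgeR p under 0.05, all of them higher. Thbs4, a thrombospondin, stood at 111, 122 and 271 CPM in ISO hearts and 5.93, 4.19 and 1.01 CPM in saline. Postn, which encodes periostin, stood at 327, 252 and 2025 CPM in ISO hearts and 23.3, 12.6 and 13.7 CPM in saline. Fbln1, the gene of fibulin 1, stood at 252, 211 and 234 CPM in ISO hearts and 122, 114 and 101 CPM in saline hearts. Like Ccn5, these genes, which the naming rule took by smallest p, had every ISO library above every saline library. Thbs4 and Postn were highest in ISO replicate 3. Of the 15 tested members 9 did not overlap in this direction, against 14.1% of all tested genes. Called members of this list numbered 2, 10 and 7 without ISO replicate 1, 2 or 3, and 1, 0 and 1 without saline replicate 1, 2 or 3. Of the 15 called genes that the naming rule took from all lists, 2, 15 and 14 kept their call without ISO replicate 1, 2 or 3, and 1, 0 and 1 without saline replicate 1, 2 or 3, and none reversed.

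**Figure D5:**
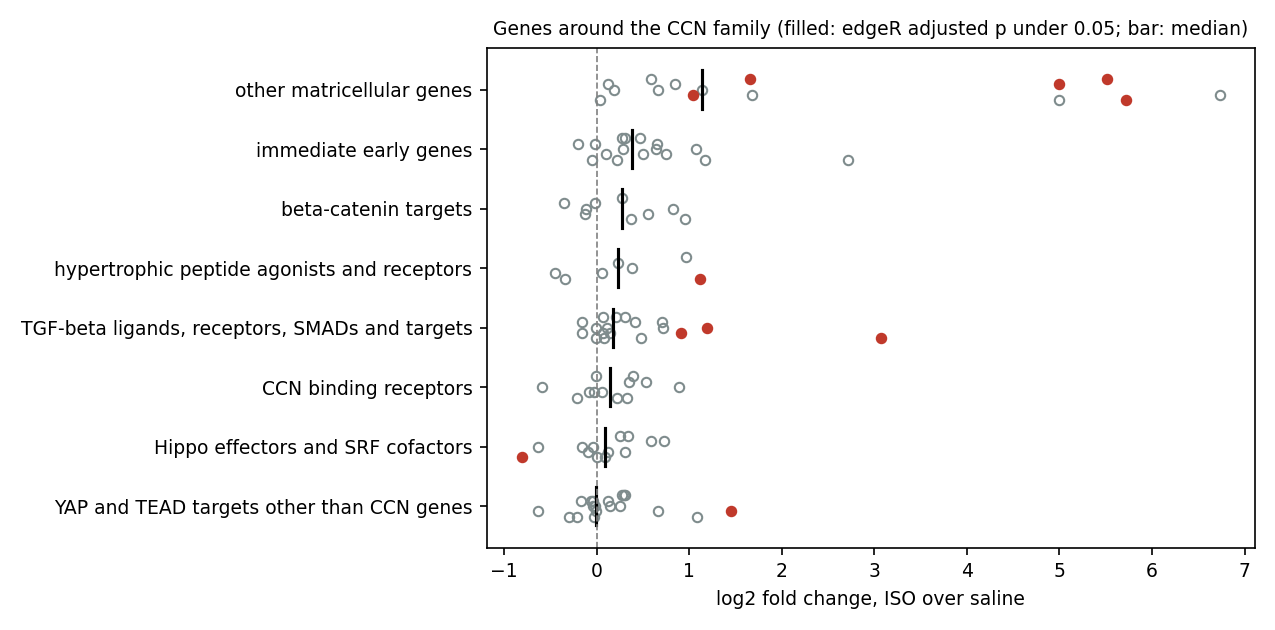
Log2 fold change of ISO over saline (horizontal axis) for each tested gene of 8 lists around the CCN family. Filled points passed an edgeR adjusted p under 0.05, open points did not, and bars mark list medians, which run from 0.00 for YAP and TEAD targets to 1.14 for other matricellular genes.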

How the data were processed

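RNA was measured in 6 rat heart libraries. Per the series description, the authors aligned 150 bp paired reads with HISAT2 and counted them with featureCounts, without stating versions or a strand setting. The deposited table holds raw counts of reads for each gene. The submitters' processing notes list a mouse build although the identifiers are rat, and files carry no coordinates. Rows without a gene name (1006 of 33889, 0.981% to 1.32% of counts) were left out, and a repeated symbol was represented by its largest row.

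Differences were tested over 13766 genes with edgeR 4.0.16 (R 4.3.3), using its quasi-likelihood test with TMM scaling, the default count filter and Benjamini-Hochberg adjustment, and genes were called under 0.05. Standard errors are the fold change over the square root of F. Log2 CPM used a prior count of 2. The fit was tested on simulated counts, where it called 12% of 1.5-fold changes, 72% of 2-fold, 92% of 4-fold and 100% of 8-fold. Of its 151 calls there, 13 were false. A gene not called at a change near 1.5-fold is thus not shown to be unchanged. The planted changes were in genes drawn at random from those above a minimum mean count, each with its own spread. These shares therefore do not give the recovery for genes as variable as Ccn1 and Ccn2 (SE 0.38 and 0.41), which was not simulated separately. Alternatives were other scalings and filters, DESeq2 1.42.0, voom (limma 3.58.1), the rule of the series, a block for the replicate number, and leaving out single libraries. Ratios other than Ccn5 to Ccn2 and list counts per left-out library were added after the data were seen.

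Members and the 8 pathway and 11 marker lists were chosen with earlier results of these data known. Genes named were the members, up to 3 called genes (otherwise the 2 most abundant) of each pathway list, up to 2 (otherwise 1) of each marker list, and the 3 most similar patterns per tested member. Of these, 2 are not reported here. Others are marked or set a ratio. Intervals on reads cover counting error only.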

Additional observations from a re-analysis of the deposited data

How the results depend on the processing

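Ccn5 kept its direction in all alternatives. Its log2 fold change was 3.74 to 3.87 in the fits of all 6 libraries and 3.30 to 4.58 when single libraries were left out. Its call was lost with voom (3.85, adjusted p = 0.0508), which left 0 members called, and without ISO replicate 1, saline replicate 2 or saline replicate 3; members called numbered 0 to 1 over the left-out libraries. Ccn1 ran from −0.10 to 0.76, Ccn2 from −0.28 to 0.76 and Ccn3 from 0.18 to 0.68 over those fits, and none of these was called in any alternative. No scaling moved the median over all genes from 0.02 to 0.13. The Ccn5 to Ccn2 shift ran from 2.91 to 4.07 without single libraries and was 3.57 and 3.32 with 0.5 and 5 reads added.

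Same-numbered ISO and saline libraries had correlations of their deviations of 0.0889, −0.0977 and 0.0175. With 3 libraries per group these values cannot decide whether the numbers pair the rats, and the labels do not say. With the replicate block, Ccn5 gave 3.81 (adjusted p = 0.029), Ccn1 0.27, Ccn2 0.25 and Ccn3 0.34, the ratio shift 3.48 (exact sign-flip p = 0.25, the smallest possible for 3 pairs), and over all genes 15 were higher and 13 lower. Not every library correlated best with its own number.

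Over all genes, 203 were called higher and 206 lower. The counts were 322 higher without a filter, 704 and 608 with DESeq2, 1193 and 619 by the rule of the series, and 123 lower (280 higher) without scaling. Leaving out single libraries gave 6 to 492 higher and 5 to 346 lower. Saline reads of Ccn5 (15 to 50) and reads of Ccn4 limit the precision of both. Why these counts moved was not tested.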
